A study of Homo sapiens with 2 samples.

Results

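CTGF, CYR61, ANKRD1 and TAGLN are 4 of the 2005 genes in the authors' deposited table, and they were taken as the rows that carry those symbols. The first 3 are widely used readouts of YAP, and TAGLN belongs to the contractile genes driven by SRF. The table compares HES2, a human embryonic stem cell line, infected with a lentivirus that carries a short hairpin RNA (shRNA) against Tfcp2l1, with the same line infected with a scramble lentivirus. Both cultures were kept in a medium with 10% KSR, FGF2 at 10 ng/ml and Activin A at 10 ng/ml for 3 passages, and RNA was sequenced on a BGISEQ-500. Each group is 1 library, and without replicates every comparison is between these 2 libraries alone. The 4 genes were selected on their levels in these 2 libraries, which were known from earlier work on the table, so their differences are a description and carry no test.

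YAP and its relative TAZ are coactivators of the Hippo pathway. When the kinases of that pathway are inactive they enter the nucleus and bind the TEAD family, which recognises the hexamer GGAATG. SRF binds the CArG box and, with its actin-sensing cofactors of the MRTF family, drives genes of the actin cytoskeleton and of muscle. CTGF and CYR61 encode secreted matricellular proteins of the CCN family. CTGF is also a target of TGF-beta signalling, and CYR61 is also an immediate early gene. ANKRD1 encodes an ankyrin repeat protein found in the nucleus and in the sarcomere of heart muscle. TAGLN encodes transgelin, an actin-binding protein abundant in smooth muscle.

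The sequences before the start sites of CTGF and ANKRD1 are shown because both hold the TEAD hexamer while the levels of these genes differed in opposite directions. They are the 250 bases before the start site in RefSeq (build GRCh38.p14), given 5′ to 3′ on the strand of the gene, with each GGAATG in capitals. CTGF, listed by RefSeq as CCN2, lies on the minus strand (window chr6:131951373-131951622), as does ANKRD1 (window chr10:90921088-90921337).
CTGF: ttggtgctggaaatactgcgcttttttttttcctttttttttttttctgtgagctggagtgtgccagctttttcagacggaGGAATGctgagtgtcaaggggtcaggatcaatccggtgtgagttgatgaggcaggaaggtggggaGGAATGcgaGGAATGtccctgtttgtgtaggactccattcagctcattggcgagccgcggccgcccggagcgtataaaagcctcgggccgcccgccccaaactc
ANKRD1: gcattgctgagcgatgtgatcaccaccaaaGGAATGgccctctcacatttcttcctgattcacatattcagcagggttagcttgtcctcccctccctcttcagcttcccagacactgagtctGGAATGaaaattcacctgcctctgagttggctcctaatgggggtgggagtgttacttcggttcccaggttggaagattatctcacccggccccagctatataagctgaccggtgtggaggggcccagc
Both strands were searched for GGAATG, and every match lay on the strand of the gene. The CTGF window held 3 matches, whose first bases lie at positions -169, -104 and -95 from the start site. The ANKRD1 window held 2, at positions -220 and -128. Of 35116 RefSeq windows of this length, 11.9% held at least 1 match, 0.940% at least 2 and 0.0826% (29 windows) at least 3. Neither window held a CArG box, which 1.16% of all windows held. The box was searched as CCWWWWWWGG, with W for A or T, and looser forms were not counted. CYR61 and TAGLN had no entry in the table of windows. A match is a description of the letters and not a measured binding site.

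**Figure D1:**
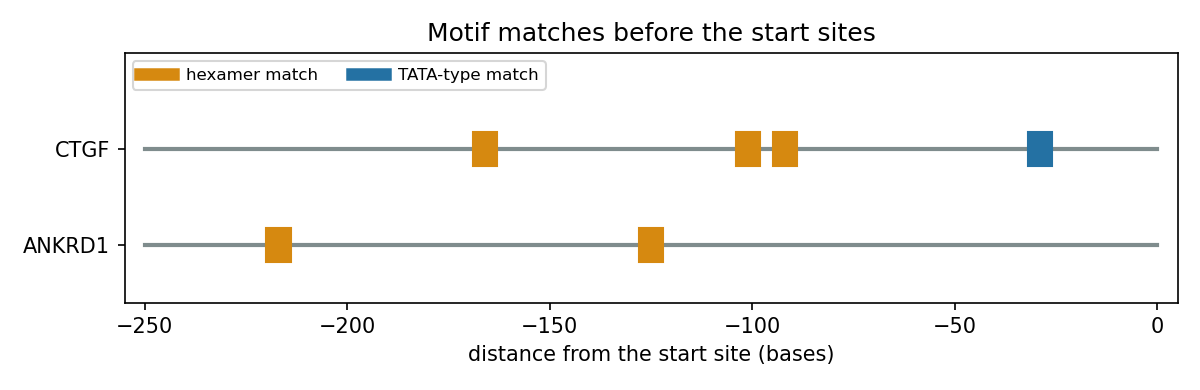
Positions of motif matches in the 250 bases before the start sites of CTGF (upper line) and ANKRD1 (lower line), with the distance from the start site in bases on the horizontal axis. Orange blocks mark the TEAD hexamer (3 matches for CTGF and 2 for ANKRD1), and the blue block marks a TATAAA match of CTGF that begins at position -32.

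Levels are in FPKM, reads scaled by gene length and by library depth, and can be compared between genes. Ratios are knockdown over scramble. The ratio of estimated reads, scaled by depth, is given with an exact (Clopper-Pearson) 95% interval that covers counting error only, since PCR copies are not counted apart from molecules. The log2 ratio has a pseudocount of 0.1 FPKM, which understates the difference of low genes. The libraries held about 22670000 (knockdown) and 23440000 (scramble) reads, as estimated from the deposited values. Of 18489 genes that the authors tested, 5.86% are in the table as higher and 4.98% as lower in the knockdown library, and of the 4 genes ANKRD1 and TAGLN are among the higher and CTGF and CYR61 among the lower. The choice of the genes fixed that count. The targeted gene, TFCP2L1, had 0.33 FPKM in the knockdown library and 3.19 FPKM in the scramble library, 9.68-fold lower (interval 7.55 to 12.6).

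The secreted CCN proteins were both lower in the knockdown library, to different extents. CTGF (gene ID 1490, 2358 bases in the authors' model) was at 7.83 FPKM in the knockdown library, on about 406 reads, against 80.5 FPKM in the scramble library, on about 4323 reads. Its knockdown level was 9.72% of its scramble level, a log2 ratio of -3.35. In reads it was 10.3-fold lower (interval 9.30 to 11.4). By the log2 ratio in the authors' deposited table (-3.36) it ranked 52nd among the 921 lower genes, and it had the 26th highest scramble level in the table. CTGF was therefore an abundant transcript of the scramble culture among the listed genes, and the knockdown library kept a level that ranked 427th.

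CYR61 (gene ID 3491, 2295 bases) was at 10.5 FPKM in the knockdown library, on about 530 reads, against 33.4 FPKM in the scramble library, on about 1745 reads. Its knockdown level was 31.4% of its scramble level, a log2 ratio of -1.66. In reads it was 3.18-fold lower (interval 2.89 to 3.51). It ranked 395th among the lower genes, near the middle of them, and 78th by its scramble level. The order of the CCN genes differed between the libraries. CTGF was at 0.746 times the level of CYR61 in the knockdown library and at 2.41 times its level in the scramble library. The other CCN genes, NOV, WISP1, WISP2 and WISP3, had no row.

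ANKRD1, the nuclear and sarcomeric ankyrin repeat protein, ran the other way from a level near 0. It (gene ID 27063, 1994 bases) was at 6.22 FPKM in the knockdown library, on about 272 reads, against 0.02 FPKM in the scramble library, on 1 read. A single read of ANKRD1 is worth 0.0221 FPKM at the scramble depth. A pair of 272 and 1 reads also gives the authors' p-value for this gene, to within 6.14e-07 on the natural log scale. The same check left gaps of 0.335 for CYR61 and 0.582 for TFCP2L1, so their estimated reads are approximate. The ratio of reads was 281 with an interval of 50.1 to 11152, so its size is fixed only loosely. The log2 ratio was 5.72 with the pseudocount of 0.1 FPKM, 2.82 with a pseudocount of 1 FPKM and 8.28 in the authors' deposited table, where it ranked 13th among 1084 higher genes. Its knockdown level ranked 507th in the table and was below that of CTGF, which was 1.26 times as high even in the knockdown library. The related genes ANKRD2 and ANKRD23 had no row.

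TAGLN, the actin-binding transgelin, was higher in the knockdown library and abundant in both. It (gene ID 6876, 1184 bases) was at 226 FPKM in the knockdown library, on about 5715 reads, against 51.5 FPKM in the scramble library, on about 1348 reads. The log2 ratio was 2.13, and in reads it was 4.38-fold higher (interval 4.13 to 4.66). Its rank by ratio was 384 among the higher genes, but its level ranked 13th in the knockdown library and 38th in the scramble library. The difference of 174 FPKM was the widest of the 4 genes, beside -72.7 FPKM for CTGF. Of the 31-base words of the TAGLN transcript nearest to the authors' length, 34.3% lie on the opposite strand of PCSK7, the next gene in RefSeq, and 5.98% of the words of CTGF lie on the opposite strand of AL133346.1. The strand setting of the counting is not given in the sources used here, so reads from these overlaps may not be told apart, and neither PCSK7 nor AL133346.1 had a row. For CYR61 no word, and for ANKRD1 0.770% of words, occurred in another gene.

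**Figure D2:**
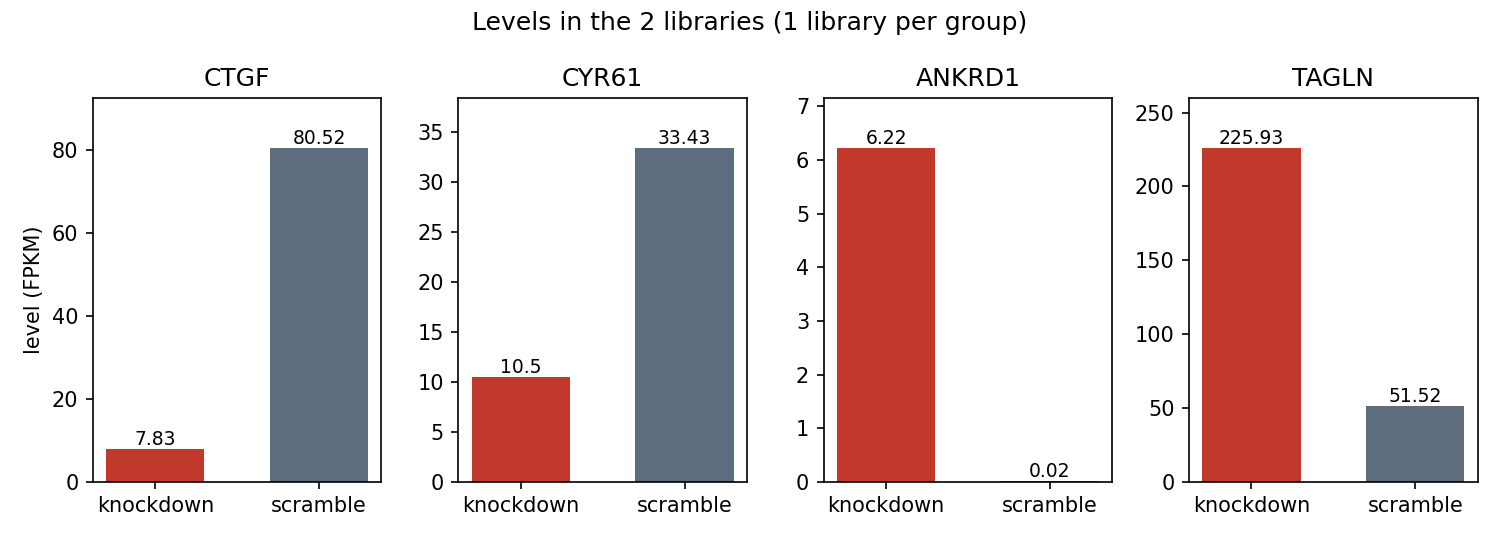
Levels in FPKM of CTGF, CYR61, ANKRD1 and TAGLN in the knockdown library (red, left) and in the scramble library (grey, right), each gene on its own linear axis from 0. Each bar is 1 library, so there is no error bar; CTGF and CYR61 are lower and ANKRD1 and TAGLN higher in the knockdown library.

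**Figure D3:**
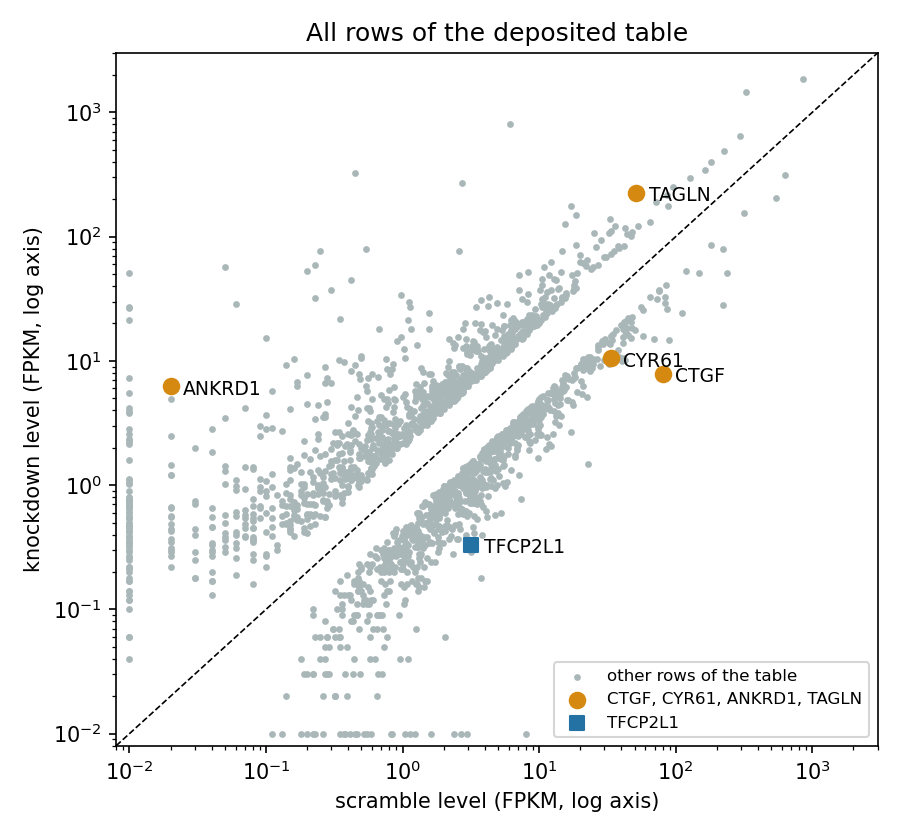
Knockdown level (vertical) against scramble level (horizontal) in FPKM, both on log axes, for the 2005 genes of the table, with the dashed line at equal levels. The empty band along the line is the authors' limit of 2-fold; CTGF and TAGLN lie toward the abundant end on opposite sides of it, and ANKRD1 lies at the left edge at 0.02 FPKM scramble.

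Other genes of the YAP/TAZ signature also went both ways. Of the 19 members of this list of 22 apart from CTGF, CYR61 and ANKRD1, 4 were in the table as higher (21.1%, against 5.86% of all genes tested) and 2 as lower (10.5%, against 4.98%), and 13 had no row. The median log2 ratio of the 6 was 1.38, beside 1.01 over all rows of the table. MYOF, a membrane repair protein, had 4.90 FPKM in the knockdown library and 0.77 FPKM in the scramble library, a ratio of 6.38 (interval 5.27 to 7.79). F3, tissue factor, was at 4.38 and 1.41 FPKM in the knockdown and scramble libraries, a ratio of 3.10. NT5E, the ectonucleotidase CD73, had 0.38 FPKM in the knockdown library and 0.07 FPKM in the scramble library, on 35 and 7 reads. FJX1, a secreted protein of the four-jointed family, was at 3.03 and 1.20 FPKM in the knockdown and scramble libraries. Of these higher genes MYOF and NT5E passed 4-fold. The lower ones were CCDC80, a matrix protein, at 1.36 FPKM in the knockdown library and 5.01 FPKM in the scramble library (ratio 0.272, interval 0.224 to 0.328), and IGFBP3, which binds insulin-like growth factors, at 0.97 and 2.04 FPKM in the same order. Without CTGF, CYR61 and ANKRD1 the summed level of the listed members was 15.02 FPKM in the knockdown library and 10.5 FPKM in the scramble library. With those 3 genes it was 39.6 FPKM in the knockdown library and 124 FPKM in the scramble library. CTGF and CYR61, which were selected on these levels, thus set the direction of the sum over members with a row. The levels of the 13 members without a row are not known here. None of MYOF, F3, NT5E, FJX1, CCDC80 and IGFBP3 had a GGAATG in its window of 250 bases.

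Of 36 components of the Hippo pathway itself, 2 were in the table as higher (5.56%, against 5.86% of all genes tested) and 0 as lower (against 4.98%), shares near the background that say nothing about the pathway as a list. The 2 were DCHS1, a large protocadherin that binds FAT4, at 12.95 FPKM in the knockdown library and 5.55 FPKM in the scramble library (ratio 2.33, interval 2.19 to 2.49), and AMOTL1, an angiomotin that holds YAP in the cytoplasm, at 20.1 and 9.66 FPKM in the same order (ratio 2.09, interval 1.98 to 2.20). YAP1, WWTR1 (TAZ), TEAD1 to TEAD4, the kinases LATS1, LATS2, STK3 and STK4, and NF2 had no row, and nothing is said here about their levels.

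The contractile and actin genes of SRF and MRTF were listed in both directions. Of the 31 members other than TAGLN, 2 were in the table as higher (6.45%) and 2 as lower (6.45%), close to the background shares. ACTA1, skeletal muscle actin, had 4.89 FPKM in the knockdown library and 1.39 FPKM in the scramble library (ratio 3.52, interval 2.53 to 4.98). ACTA2, smooth muscle actin, had 2.80 FPKM in the knockdown library and 1.25 FPKM in the scramble library, and is uncertain because other genes hold 33.2% of its words. LMOD1, a leiomodin that nucleates actin filaments in smooth muscle, was lower at 0.76 and 2.20 FPKM in the knockdown and scramble libraries. SYNPO2, an actin-bundling protein, was lower at 1.62 and 5.27 FPKM in the same order. Among the members with a row, TAGLN alone held most of the level. The other 4 summed to 10.07 FPKM in the knockdown library and 10.1 FPKM in the scramble library. The levels of the 27 members without a row, among them ACTB and ACTG1, are not known here. The window of ACTA1 held 1 CArG box and 2 hexamers, and those of LMOD1 and SYNPO2 held 1 hexamer each. That of ACTA2 held neither motif. Of all windows, 11.9% held at least 1 hexamer and 1.16% a CArG box. SRF, MKL1, MKL2, MYOCD, ELK1, ELK3 and ELK4 had no row. TAGLN2, the close relative of TAGLN, had 490 FPKM in the knockdown library and 225 FPKM in the scramble library (ratio 2.17, interval 2.11 to 2.23, with 15.3% of its words in another gene). TAGLN2 was 2.17 times as high as TAGLN in the knockdown library and 4.38 times as high in the scramble library. TAGLN3, CNN1, CNN2 and CNN3 had no row.

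**Figure D4:**
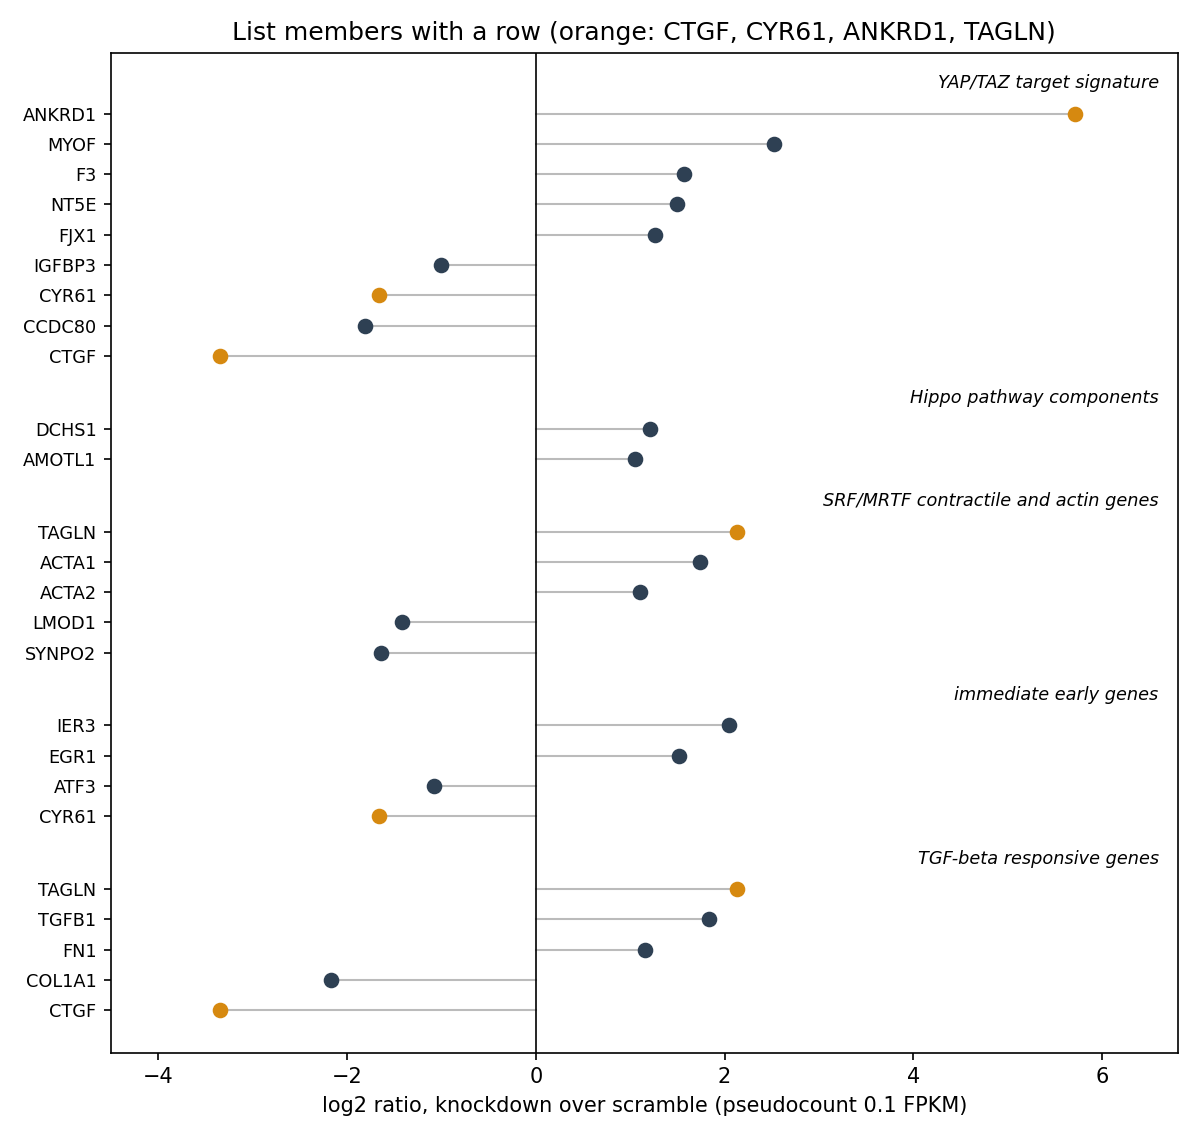
Log2 ratio of knockdown over scramble (horizontal, pseudocount 0.1 FPKM) for the members with a row of 5 lists (YAP/TAZ signature, Hippo components, SRF/MRTF genes, immediate early genes and TGF-beta responsive genes), with CTGF, CYR61, ANKRD1 and TAGLN in orange. The YAP/TAZ signature runs from ANKRD1 at 5.72 to CTGF at -3.35, and of these 5 lists the Hippo components have genes above 0 only.

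Of 15 immediate early genes other than CYR61, 2 were higher (13.3%, against 5.86% of all genes tested) and 1 lower (6.67%, against 4.98%), so few that the list is described by its genes only. IER3 had 14.2 FPKM in the knockdown library and 3.35 FPKM in the scramble library, with 27.7% of its words in another gene. The zinc finger factor EGR1, an SRF target, was at 6.20 and 2.10 FPKM in the knockdown and scramble libraries. ATF3, a stress-induced factor, was lower, at 6.0 FPKM in the knockdown library and 12.8 FPKM in the scramble library. CYR61 was thus lower while EGR1 and IER3 were higher. Of 18 TGF-beta responsive genes other than CTGF and TAGLN, 2 were higher (11.1%, against 5.86% of all genes tested) and 1 lower (5.56%, against 4.98%), which again rests on single genes. The ligand gene TGFB1 had 52.1 FPKM in the knockdown library and 14.6 FPKM in the scramble library (ratio 3.58, interval 3.32 to 3.86), and fibronectin, FN1, was at 83.5 and 37.5 FPKM in the same order. COL1A1, the collagen I alpha chain, was lower like CTGF, at 24.4 FPKM in the knockdown library and 110 FPKM in the scramble library (ratio 0.221, interval 0.213 to 0.230).

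In the annotation columns of the authors' deposited table, CTGF and CYR61 share terms that ANKRD1 and TAGLN do not carry. Other terms separate them. Of the 4 genes, only CTGF carries cell-substrate adhesion and only CYR61 carries angiogenesis. ANKRD1 and TAGLN shared none of the terms examined. CTGF and CYR61 both carry the terms growth factor binding and glycosaminoglycan binding, which 4 rows hold jointly. Of those, COL5A1 was higher (12.75 FPKM in the knockdown library and 5.75 FPKM in the scramble library) and FGFR2 was lower (13.7 and 29.2 FPKM in the same order). Growth factor binding was carried by 12 rows, 5 higher and 7 lower, and CTGF had the lowest log2 ratio of them, ahead of COL1A1 (-2.17) and CYR61. The term sarcomere was carried by ANKRD1, MYL7 (7.77 FPKM in the knockdown library and 0.48 FPKM in the scramble library) and ACTA1. All 3 were higher, beside 54.1% of all rows, but ANKRD1 was selected on these levels. Only rows with that exact term were counted, and the lower muscle genes named below do not carry it. TAGLN carries cytoskeletal protein binding, as do 30 rows in all, 19 higher (63.3%) and 11 lower, beside 54.1% higher over all rows. Muscle genes with that term went both ways. ACTA1, TNNT1 (80.6 FPKM in the knockdown library and 38.2 FPKM in the scramble library) and TMOD1 (2.01 and 0.61 FPKM) were higher. ACTN3 (15.3 and 47.3 FPKM in the same order) and TNNT2 (0.70 and 2.26 FPKM) were lower. So were MYOZ1 (2.56 and 7.3 FPKM), MYBPC2 (0.89 and 3.37 FPKM), MYH2 (0.05 and 0.73 FPKM) and MYO18B (0.06 and 0.28 FPKM). The terms were picked because these genes carry them, so their counts describe the table only.

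Genes of a like pattern were sought by the distance between log2(FPKM + 0.1) values in the 2 libraries, which are only 2 values per gene. SHH, a secreted morphogen, lay nearest to ANKRD1 (distance 0.03), at 6.11 FPKM in the knockdown library and 0.02 FPKM in the scramble library, followed by PRSS1 (0.20) and LINC00261 (0.27). CYR61 lay nearest to OSBPL10 (0.15), GOLGA7 (0.18) and TSPAN4 (0.18). CTGF and TAGLN lay further from their nearest genes. The nearest to CTGF was the pluripotency gene UTF1 (0.92), at 14.8 FPKM in the knockdown library and 88.7 FPKM in the scramble library, then PIM1 (0.96) and RAI14 (1.00). The nearest to TAGLN was COL6A1 (0.54), at 191 and 72.1 FPKM in the knockdown and scramble libraries, then VIM (0.74) and SLC7A5 (0.84). The levels of VIM and PRSS1 are uncertain, since 47.4% and 19.4% of their words occur in another gene. Of the 16 protein-coding genes that lie next to the 4 genes in RefSeq (GRCh38.p14; a pair on each side), 1 had a row, HECTD2 near ANKRD1, at 1.98 FPKM in the knockdown library and 0.90 FPKM in the scramble library.

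Marker lists of other cell types are given here beside the shares of all genes tested, 5.86% higher and 4.98% lower. All 10 definitive endoderm markers on the list were higher, with a summed level of 1073 FPKM in the knockdown library and 9.67 FPKM in the scramble library. CER1 held 799 FPKM of the knockdown sum, and SOX17 was the marker that the scramble library gave at its floor of 0.01 FPKM. Of 10 embryonic stem cell markers, SOX2, PODXL and UTF1 were lower (30.0%), summing to 180 FPKM in the knockdown library and 491 FPKM in the scramble library, and 7, among them POU5F1 and NANOG, had no row. Smooth muscle markers other than TAGLN gave 1 higher and 1 lower of 7 (14.3% each), with sums of 3.56 FPKM in the knockdown library and 3.45 FPKM in the scramble library, and MYH11, CNN1, DES, SMTN and MYOCD had no row. Of 16 cardiac muscle markers 4 (25.0%) were higher (NPPB, MYL7, TTN and RYR2) and 1 (6.25%), TNNT2, lower, with sums of 61.8 FPKM in the knockdown library, 50.8 FPKM of it from NPPB, and 3.45 FPKM in the scramble library. NPPB too was at that floor among scramble values, and 11 of these markers had no row, among them MYH6, MYH7 and NKX2-5. Of 12 fibroblast markers 2 were higher (PDGFRA and COL5A1) and 2 lower (COL1A1 and S100A4), 16.7% each, with sums of 40.0 FPKM in the knockdown library and 120 FPKM in the scramble library. The part of these markers in the levels of CTGF, CYR61, ANKRD1 and TAGLN was not tested, and in bulk RNA fewer cells of a type and less RNA per cell cannot be told apart.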

How the data were processed

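The authors' deposited table gives, for 2005 genes, the levels in both libraries, their log2 ratio, a p-value with its false discovery rate, and the gene length. The submitters' processing notes name hg19 and Bowtie 0.12.2; for the counter, test, strand setting and filters, no statement was found (not given in the sources used here). The header calls the levels expression, and the deposited values were read as FPKM because they scale with inferred reads, length and depth; the gene length, recorded as a score, is the authors' in bases, per the file headers. The deposited log2 values equal log2 of the level ratio. No deposited false discovery rate exceeds 0.000990 and no log2 ratio is smaller in size than 1: these are selected genes. The number tested (18489) came from whole ranks in the ratio of p-value to false discovery rate.

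Depth came from the deposited p-values of 75 genes at the floor (0.01 FPKM) in the scramble library, 68 of them on whole steps (within 0.05) of a Poisson test of 2 libraries, which gave a depth ratio of 1.03. Of these, 50 genes above 0.3 FPKM in the knockdown library gave its depth and a length offset of 68 bases. Reads were then estimated from FPKM. On a simulated table of 2005 rows, 99.9% of rows with 100 or more reads over both libraries had summed reads within 2% of those drawn. The simulated table used the same formulas and nearly the same depths as the estimate. It therefore checks the arithmetic only, and not whether the formulas hold for the deposited values or for each library alone. In a separate draw of 200 changed genes, 94.5% of intervals held the true ratio. That draw had known reads at equal depth, and no gene expected at as few scramble reads as ANKRD1 or NT5E. Count models could not be used, since the table holds FPKM; the conditions were given no p-value.

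The genes and the 14 lists (180 genes, 179 matched to a gene ID) were chosen with earlier results of these data known. Named were the 4 genes, TFCP2L1, list members with a row (up to 8 a list, else the 4 highest and 4 lowest) and the 3 nearest genes. FJX1, CER1, FGFR2 and HECTD2 were added after their values were seen. So were the muscle genes TNNT1, TMOD1, ACTN3, MYOZ1, MYBPC2, MYH2 and MYO18B, taken from an annotation term. Python 3.11.15, numpy 2.4.6, scipy 1.17.1 and pandas 2.3.3 were used.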

Additional observations from a re-analysis of the deposited data

How the results depend on the processing

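The log2 ratios of CTGF, CYR61 and TAGLN moved by less than the width of their counting error to that side with a pseudocount of 1 FPKM, with none, with estimated reads and with the authors' deposited ratio, although CTGF, at -3.21 with a pseudocount of 1 FPKM, then lay just outside its counting interval. That of ANKRD1 was 2.82 with a pseudocount of 1 FPKM. No value changed direction. Counts of list members with a row were the same or smaller under stricter limits, by construction. Here they include CTGF, CYR61, ANKRD1 and TAGLN, which were selected on these values, and no background share was taken. At 4-fold, the YAP/TAZ signature had 3 higher (ANKRD1, MYOF and NT5E) and 1 lower (CTGF), and the Hippo components 0 higher. The SRF/MRTF genes had 1 higher (TAGLN) and 0 lower, and the immediate early genes 1 higher (IER3) and 0 lower. The TGF-beta genes had 1 higher, again TAGLN, and 2 lower (COL1A1 and CTGF). With a pseudocount of 1 FPKM, 3 of the YAP/TAZ signature (ANKRD1, MYOF and F3) and 1 Hippo component (DCHS1) were higher by 2-fold. With that pseudocount 1 of the SRF/MRTF genes (SYNPO2) and 1 of the immediate early genes (CYR61, not ATF3) were lower by 2-fold. A limit of the counting interval wholly beyond 2-fold was chosen after seeing the data. Under it 1 Hippo component (DCHS1) was higher and 1 immediate early gene (CYR61) lower. The interval of ATF3 (0.406 to 0.541) did not pass this limit. Of 64 alternative values, 49 kept to the limits and 15 moved. Some could not move, so this tally does not measure stability. Counts that began at 0 stayed at 0 under any stricter limit. The deposited ratio is the ratio without a pseudocount, and the reads were estimated from the same FPKM. Depth limits ANKRD1 and NT5E, on 1 and 7 scramble reads. No paired analysis was possible because each group has 1 library.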
